A study of Mus musculus with 12 samples.

Results

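Genes of antigen presentation by the major histocompatibility complex (MHC) were followed in RNA from cardiomyocyte nuclei of adult mice with and without an active form of YAP. The genes were all symbols of the nuclear RNA count table that begin with H2-, the prefix of the mouse MHC, together with B2m, Tap1, Tap2, Tapbp, Psmb8, Psmb9, Psmb10, Cd74, Ciita, Nlrc5 and Erap1. This gave 55 of the 46983 symbols in the table, of which 49 lie on chromosome 17, where the mouse MHC is encoded. A filter on low counts left 29 of the 55 among 17715 tested genes.

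The study used mice with the Myh6-MCM transgene, a tamoxifen-inducible Cre recombinase driven by the cardiomyocyte promoter of Myh6, and all animals were adults given tamoxifen. Controls carried Myh6-MCM alone, and the YAP5SA group also carried the Yap5SA+/tg allele, a YAP whose inhibitory Hippo phosphorylation sites are mutated. Nuclei were isolated on beads by the marker PCM1, and their RNA was depleted of ribosomal RNA and sequenced, with 2 control and 2 YAP5SA libraries. The number of animals behind each library, the time after tamoxifen and the strain background were not given in the sources used here. The p-values therefore reflect how far these 4 libraries spread, which may be technical.

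A pair of MHC pathways shows peptides to T cells. In the class I pathway, present in most nucleated cells, the proteasome cuts cytosolic proteins, the TAP1-TAP2 transporter moves the peptides into the endoplasmic reticulum, ERAP1 trims them and tapasin (Tapbp) loads them onto a heavy chain paired with beta-2 microglobulin (B2m). Interferon gamma raises these genes through IRF1 and through NLRC5, the class I transactivator, and replaces catalytic proteasome subunits by those encoded by Psmb8, Psmb9 and Psmb10. In the class II pathway, used mainly by dendritic cells, macrophages and B cells, CIITA switches on the class II chains, the invariant chain (Cd74) and the peptide exchange factor H2-DM. NLRC5 and CIITA do not bind DNA themselves but join a complex of RFX, CREB and NF-Y factors on promoters of the MHC genes.

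The libraries held 10927396 and 7850661 counts in the controls and 15012122 and 12806949 counts in the YAP5SA group, where 3 counts correspond to between 0.202 and 0.397 CPM, the count divided by the scaled library total and used here as the level of a gene. The 2 control libraries differed from each other more than the 2 YAP5SA libraries did, with an SD of the log2 difference over tested genes of 0.799 against 0.344. Yap1, the gene altered by the transgene, was counted at 138 and 166 CPM in the controls and 168 and 161 CPM with YAP5SA, with an adjusted p of 0.750; whether this symbol includes transgene reads was not given in the sources used here. The 8 cardiomyocyte markers examined (Myh6, Tnnt2, Tnni3, Actc1, Ryr2, Mybpc3, Actn2 and Pln) summed to 13365 and 20814 CPM in the controls and 8255 and 8629 CPM with YAP5SA. In such bulk libraries, more nuclei of one type and more RNA per nucleus cannot be told apart.

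The promoters of the MHC genes carry the sites on which the RFX, CREB and NF-Y factors assemble, and 5 are shown because the genes behind them gave the main contrasts of the data: a light chain, the 2 most abundant heavy chains, a transporter subunit and a class II chain. Each sequence runs 5′ to 3′ from 250 bases before to 50 bases after the RefSeq gene start in the build GRCm38.p6, in the direction of the gene. Capitals mark matches on either strand to GAAA followed after any 2 bases by GAAA (the core of an interferon-stimulated response element), CCAAT (bound by NF-Y and read as ATTGG on the other strand), TGACG (bound by CREB factors, read as CGTCA on the other strand) and GGAATG (a TEAD site).
B2m, chr2:122147437-122147736, plus strand: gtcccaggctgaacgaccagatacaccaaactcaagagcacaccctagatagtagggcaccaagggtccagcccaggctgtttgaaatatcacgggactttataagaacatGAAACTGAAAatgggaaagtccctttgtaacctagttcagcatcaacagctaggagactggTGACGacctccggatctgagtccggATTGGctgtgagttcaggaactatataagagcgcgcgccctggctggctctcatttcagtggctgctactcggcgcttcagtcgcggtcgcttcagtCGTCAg
H2-D1, chr17:35262844-35263143, plus strand: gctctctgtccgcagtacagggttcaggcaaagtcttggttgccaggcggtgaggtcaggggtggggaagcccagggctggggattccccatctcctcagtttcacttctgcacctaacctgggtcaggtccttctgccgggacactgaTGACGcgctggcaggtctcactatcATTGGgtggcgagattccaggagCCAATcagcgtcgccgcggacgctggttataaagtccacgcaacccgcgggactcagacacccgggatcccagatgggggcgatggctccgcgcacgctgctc
H2-K1, chr17:34000298-34000597, minus strand: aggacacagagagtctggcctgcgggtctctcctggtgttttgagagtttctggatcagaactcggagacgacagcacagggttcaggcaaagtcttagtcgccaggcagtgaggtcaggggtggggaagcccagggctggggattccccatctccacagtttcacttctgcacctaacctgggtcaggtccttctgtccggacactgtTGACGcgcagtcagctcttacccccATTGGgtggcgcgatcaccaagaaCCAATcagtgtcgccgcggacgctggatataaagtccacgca
Tap1, chr17:34187306-34187605, plus strand: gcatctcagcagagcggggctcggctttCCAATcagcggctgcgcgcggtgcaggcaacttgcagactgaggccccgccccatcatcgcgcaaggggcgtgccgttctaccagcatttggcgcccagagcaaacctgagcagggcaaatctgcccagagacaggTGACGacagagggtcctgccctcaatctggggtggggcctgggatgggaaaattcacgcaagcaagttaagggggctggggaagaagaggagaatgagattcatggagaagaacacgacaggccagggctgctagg
H2-Aa, chr17:34287774-34288073, minus strand: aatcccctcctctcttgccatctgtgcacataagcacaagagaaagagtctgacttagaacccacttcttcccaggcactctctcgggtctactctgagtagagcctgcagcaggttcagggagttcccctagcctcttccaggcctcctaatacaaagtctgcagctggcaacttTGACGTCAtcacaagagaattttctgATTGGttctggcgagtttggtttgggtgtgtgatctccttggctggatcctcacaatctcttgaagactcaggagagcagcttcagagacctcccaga

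Windows of this kind were matched for 38 of the 55 genes, among them 20 of the 29 tested genes. CCAAT was found in 17 of these 20 genes, against 37.4% of the 32851 windows in the table. TGACG was found in 10 of the 20, against 20.8% of windows. The interferon-stimulated core was present in 4 of the 20 (B2m, Erap1, H2-T22 and H2-T23), against 3.44% of windows, and the B2m match began at position -139 from the gene start. Only exact matches to this string were counted, so a window without a match may still hold a variant of the element. GGAATG was present in 1 of the 20 (Erap1), against 14.7%. TTC followed after any 3 bases by GAA (the core of an interferon gamma activated site) was also searched. It was present in 3 of the 20 (H2-DMb2, H2-M3 and Psmb8), against 8.30% of windows, and in none of the windows shown. A gene can have several windows, so the shares of genes and of windows do not have the same denominator.

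In B2m, H2-D1, H2-K1 and H2-Aa the TGACG match was followed by ATTGG at a similar distance, with 20 bases between them in the first 3 and 21 in H2-Aa. This spacing, which was noticed in the sequences and not chosen beforehand, was then searched as TGACG followed by ATTGG after 18 to 22 bases. It was found in 88 windows (0.268%), and in 6 of the 38 genes with a window. The 6 were these 4, H2-Q7 with 19 bases between the matches and H2-M3 with 20. The window of Tap1 held TGACG and CCAAT but not this arrangement. It shares 275 bases with that of Psmb9, which is transcribed from the same stretch in the other direction, so both genes have the same matches there. A match is a string of letters, and no binding was measured here.

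Across the 29 tested genes, B2m and Tap1 were higher in the YAP5SA nuclei and no gene was lower. The class I side was measured above the controls in most of its members: both YAP5SA libraries exceeded both control libraries for B2m, the 2 main heavy chains H2-D1 and H2-K1, Tap1, Tapbp, Erap1, all 3 immunoproteasome subunits and Nlrc5. The same order was seen in 28.1% of all tested genes, and of the genes just named only B2m and Tap1 passed the threshold. The class II chains and Cd74 differed by between 2.76 and 4.38 times between the 2 control libraries, and the YAP5SA libraries lay inside that range or near it. B2m was 2.31 times and Tap1 1.94 times the control level.

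**Figure D1:**
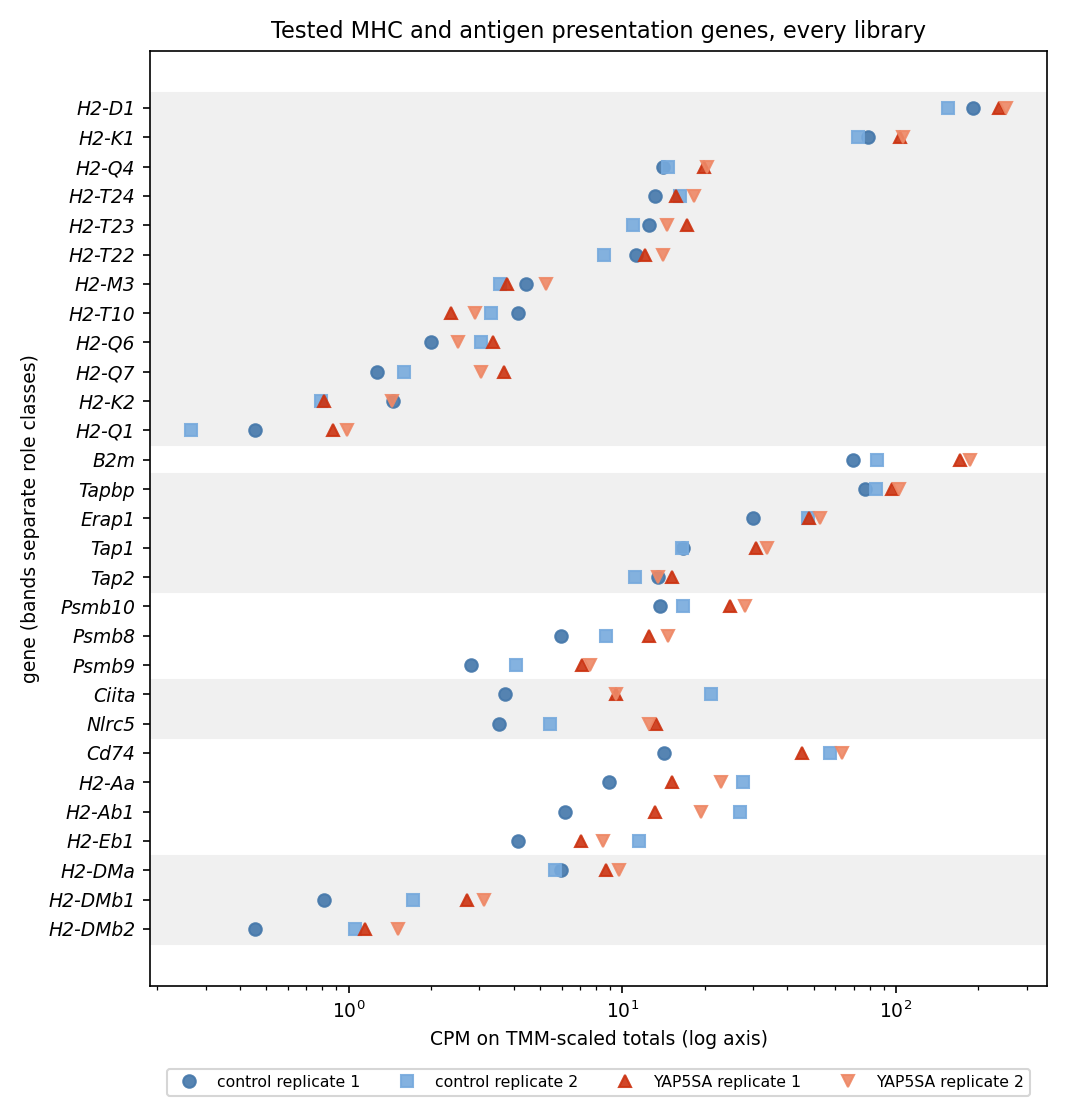
Level of each of the 29 tested genes in each library, in CPM on a log axis, with the bands separating the roles in the pathway. For B2m, Tap1, Nlrc5 and the 3 immunoproteasome subunits both YAP5SA points lie to the right of both control points, while for Cd74, Ciita and the class II chains the 2 control points lie far apart.

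By edgeR's quasi-likelihood test with Benjamini-Hochberg adjustment over all 17715 tested genes, 2 of the 29 rose, where 3.12% of all tested genes rose. None of the 29 fell at an adjusted p under 0.05, where 0.999% of all tested genes fell. None was lower at an unadjusted p under 0.05 either, and DESeq2 and limma-voom also called none lower (2.82% and 0.903% of all genes). At an unadjusted p under 0.05, 12 of the 29 were higher, where 12.7% of all tested genes were. The log2 fold change was positive in 25 of the 29, against 45.7% of all tested genes, and its median was 0.46 against -0.06. In 18 genes both YAP5SA libraries lay above both controls (28.1% of all tested genes), and in 1, H2-T10, both lay below (28.3%). DESeq2 called 3 higher (B2m, Tap1 and Nlrc5; 5.72% of all genes to which it gave an adjusted p), and limma-voom called 1 (B2m; 3.12%).

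How many genes passed depended on single libraries. Without either YAP5SA library none of the 29 passed, with 3 (B2m, Tap1 and Nlrc5) higher at an unadjusted p under 0.05 in each case (5.85% of all genes without YAP5SA replicate 1 and 5.35% without replicate 2). Over all tested genes 0 then rose without YAP5SA replicate 1 and 20 (0.113%) without replicate 2, and 0 fell in either. Without control replicate 1, 9 rose and 3 fell (18.8% and 17.9% of all genes), and without control replicate 2, 18 rose and 0 fell (20.1% and 18.8%). In each of these fits the group with 1 library left borrows its spread from the other group.

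**Figure D2:**
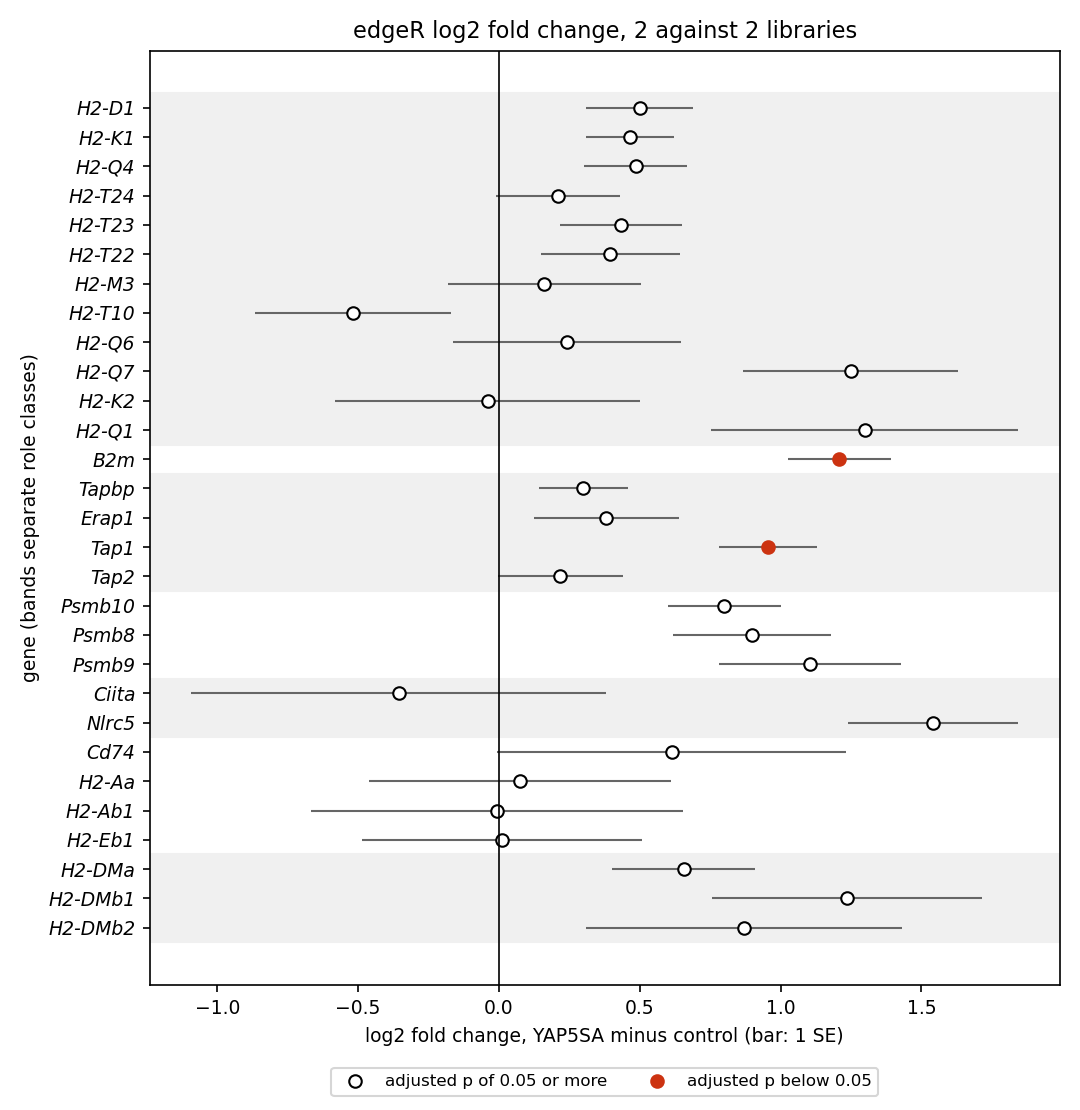
Log2 fold change, YAP5SA minus control, of the 29 tested genes with bars of 1 SE either side, from the edgeR fit; filled points have an adjusted p below 0.05. B2m (1.21) and Tap1 (0.96) passed an adjusted p of 0.05, while Ciita, H2-Ab1 and Cd74 have the widest bars.

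B2m, the light chain that every classical class I molecule needs to fold and reach the surface, is encoded at chromosome 2, 122147686 to 122153083, of mm10. It was counted at 69.6 and 85.1 CPM in the controls and at 171 and 186 CPM with YAP5SA. The groups were far apart, at 77.3 ± 11 against 178.6 ± 10.9 CPM (SD, n = 2 each). The log2 fold change was 1.21 ± 0.183 (SE), with an adjusted p of 0.0375. The direction held against each control taken alone, with a log2 fold change of 1.07 without control replicate 1 and 1.37 without control replicate 2. Of the 11 alternatives run, 8 kept the call, and its adjusted p over them lay between 3.21e-17 and 0.438. Among those that lost it were the fits without YAP5SA replicate 1 (adjusted p = 0.438) and without YAP5SA replicate 2 (adjusted p = 0.395), where the log2 fold change was 1.27 and 1.14.

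H2-D1 and H2-K1 encode the classical class I heavy chains D and K, which present peptides to CD8+ T cells. H2-D1 was counted at 192 and 155 CPM in the controls and 238 and 253 CPM with YAP5SA, a log2 fold change of 0.50 ± 0.190 (SE) with an adjusted p of 0.195. H2-K1 was counted at 79.2 and 72.4 CPM in the controls and 103 and 106 CPM with YAP5SA, a log2 fold change of 0.46 ± 0.156 with an adjusted p of 0.158. In both genes the YAP5SA pair lay above the control pair, and neither passed the threshold. Together they held 79.5% and 77.8% of all heavy chain CPM in the controls and 80.6% and 80.8% in the YAP5SA libraries, so the same pair made up most of the heavy chain signal in all 4 libraries. H2-D1 counts were 2.42, 2.14, 2.31 and 2.38 times H2-K1 counts in control 1, control 2, YAP5SA 1 and YAP5SA 2.

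On a scale per kilobase of annotated exon, the level of B2m moved from 89.9 to 208 CPM per kb between the group means. H2-D1 moved from 67.3 to 95.2 and H2-K1 from 25.8 to 35.6 CPM per kb. Within each library, the ratio of B2m to H2-K1 on this scale was 3.0 and 4.01 in the controls and 5.66 and 5.99 in the YAP5SA libraries. The light chain thus stood further above the heavy chain in both YAP5SA libraries than in either control, a ratio that does not depend on the scaling between libraries. Nuclear RNA is rich in introns, and whether intronic reads were counted was not given in the sources used here.

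Of 31 heavy chain genes, 12 were tested and 0 passed by edgeR, DESeq2 or limma-voom. By edgeR 4 were at an unadjusted p under 0.05, all higher (H2-D1, H2-K1, H2-Q4 and H2-Q7), where 12.7% of all tested genes were higher. The Q, T and M genes encode nonclassical or little polymorphic relatives of D and K. H2-Q4, a Q-region heavy chain, was measured at 14.1 and 14.7 CPM in the controls and 19.9 and 20.4 CPM with YAP5SA (log2 fold change 0.49, adjusted p = 0.194). H2-Q7, which encodes a form of Qa-2, was measured at 1.27 and 1.59 CPM against 3.71 and 3.04 CPM (1.25, adjusted p = 0.134). H2-Q1 passed the count filter only through the YAP5SA libraries and stood at 0.453 and 0.264 CPM against 0.876 and 0.987 CPM (1.30, adjusted p = 0.228).

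H2-T23 encodes Qa-1, which presents leader peptides of other class I chains to natural killer cells, and was measured at 12.5 and 11 CPM in the controls and 17.3 and 14.5 CPM with YAP5SA (log2 fold change 0.43, adjusted p = 0.295). H2-T22 was measured at 11.2 and 8.59 CPM against 12.1 and 14.0 CPM (0.39, adjusted p = 0.384), and H2-T24 had a log2 fold change of 0.21 (adjusted p = 0.604). H2-T10, which with H2-T22 is a known ligand of some gamma delta T cells, was the tested gene with both YAP5SA libraries below both controls. Its values were 4.17 and 3.30 CPM in the controls and 2.36 and 2.89 CPM with YAP5SA (log2 fold change -0.52, adjusted p = 0.415). H2-T10 shares 16.0% of its 75-base windows with H2-T22, so reads may have been assigned to either.

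For the remaining tested heavy chains the groups overlapped. H2-M3, which presents formylated peptides, had a log2 fold change of 0.16 (adjusted p = 0.814), H2-Q6 of 0.24 (adjusted p = 0.757) and the pseudogene H2-K2 of -0.04 (adjusted p = 0.975). The sign of H2-K2, H2-Q6 and H2-M3 turned in at least 1 alternative fit. More than 10% of the 75-base windows of H2-Q1, H2-Q6, H2-Q7, H2-T22, H2-T10, H2-DMb1 and H2-DMb2 recur in another gene, against 3.10% for H2-K1, 5.40% for H2-D1 and 0 for B2m and Tap1. The values of those 7 genes are therefore uncertain as gene-specific levels.

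The 26 genes that were not tested had few or no counts in these nuclei. Of these, 7 had no count in any library, 12 had 1 to 10 counts in the 4 libraries together, and 7 had more, up to the 24 of H2-M10.2, a heavy chain of the M region, with 6 counts in each library. H2-Q3 was counted at 0 in both controls and at 3 and 5 in the YAP5SA libraries, and H2-Q5 at 3 and 3 against 10 and 5. In 3 of the genes with more than 10 counts, most came from control replicate 1. H2-Bl was counted 16 times there and 2, 1 and 3 times in control replicate 2, YAP5SA 1 and YAP5SA 2. H2-Q10, a secreted heavy chain made mainly by the liver, was counted 15 times there and 1, 2 and 3 times in the others, and H2-Pb 13 times there and 0, 0 and 1 times. These 3 were singled out after their values were seen, and no fold is given at such counts.

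Tap1 encodes a subunit of the peptide transporter and lies at chromosome 17, 34187553 to 34197225. It was counted at 16.7 and 16.5 CPM in the controls and 30.7 and 33.6 CPM with YAP5SA. The control libraries were almost equal, at 16.6 ± 0.100 CPM, and the YAP5SA libraries reached 32.2 ± 2.06 CPM (SD, n = 2 each). The log2 fold change was 0.96 ± 0.173 (SE), with an adjusted p of 0.0495. It was 0.96 against either control alone. Of the 11 alternatives run, 7 kept the call, and its adjusted p over them lay between 6.54e-07 and 0.580. Among those that lost it were the fits without YAP5SA replicate 1 (adjusted p = 0.479) and without YAP5SA replicate 2 (adjusted p = 0.580), and limma-voom (adjusted p = 0.0525).

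Tap2, the partner subunit without which TAP1 cannot transport, was measured at 13.5 and 11.1 CPM in the controls and 15.2 and 13.4 CPM with YAP5SA (log2 fold change 0.22, adjusted p = 0.594). The count ratio of Tap1 to Tap2 was 1.23 and 1.49 in the controls and 2.02 and 2.50 in the YAP5SA libraries. Tapbp, the bridge between transporter and heavy chain, was measured at 77 and 84.6 CPM against 96.6 and 102 CPM (0.30, adjusted p = 0.313). Erap1, the trimming peptidase, was measured at 30.1 and 47.7 CPM against 48.2 and 52.9 CPM (0.38, adjusted p = 0.414), with the YAP5SA values just above control replicate 2. Of these 4 genes, 1 passed.

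The gene models of Tap1 and Psmb9 lie on opposite strands and share 212 bases at their starts. In all, 12 tested genes have exons that overlap exons of a gene on the other strand: Nlrc5, Erap1, Ciita, Tapbp, H2-DMa, Psmb9, Tap1, Psmb8, Tap2, H2-Q4, H2-T22 and H2-T10. The library kit keeps the strand, but the strand setting used in counting was not given in the sources used here. B2m, H2-D1 and H2-K1 have no such overlap.

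The immunoproteasome subunits replace the constitutive catalytic subunits: Psmb8 replaces Psmb5, Psmb9 replaces Psmb6 and Psmb10 replaces Psmb7. Psmb10 was measured at 13.8 and 16.7 CPM in the controls and 24.8 and 28.1 CPM with YAP5SA (log2 fold change 0.80, adjusted p = 0.0916). Psmb8 was measured at 5.98 and 8.72 CPM against 12.5 and 14.7 CPM (0.90, adjusted p = 0.139). Psmb9 was measured at 2.81 and 4.10 CPM against 7.14 and 7.59 CPM (1.11, adjusted p = 0.124). In each of the 3 the YAP5SA pair lay above the control pair (28.1% of all tested genes), and 0 passed by edgeR, DESeq2 or limma-voom. All 3 were higher at an unadjusted p under 0.05 by edgeR, where 12.7% of all tested genes were. Without control replicate 1 the log2 fold changes were 0.67 for Psmb10, 0.64 for Psmb8 and 0.84 for Psmb9. Without control replicate 2 they were 0.95, 1.20 and 1.40.

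The constitutive subunits lay the other way, with log2 fold changes of -0.52 for Psmb5, -0.55 for Psmb6 and -0.36 for Psmb7, none past the threshold. Within each library the count ratio of Psmb8 to Psmb5 was 0.189 and 0.458 in the controls and 0.667 and 0.882 in the YAP5SA libraries. The ratio of Psmb9 to Psmb6 was 0.0256 and 0.0573 against 0.119 and 0.119. The ratio of Psmb10 to Psmb7 was 0.223 and 0.283 against 0.540 and 0.585. All 3 ratios were higher in both YAP5SA libraries than in either control, and Psmb6 counts stayed far above those of Psmb9 in every library.

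**Figure D3:**
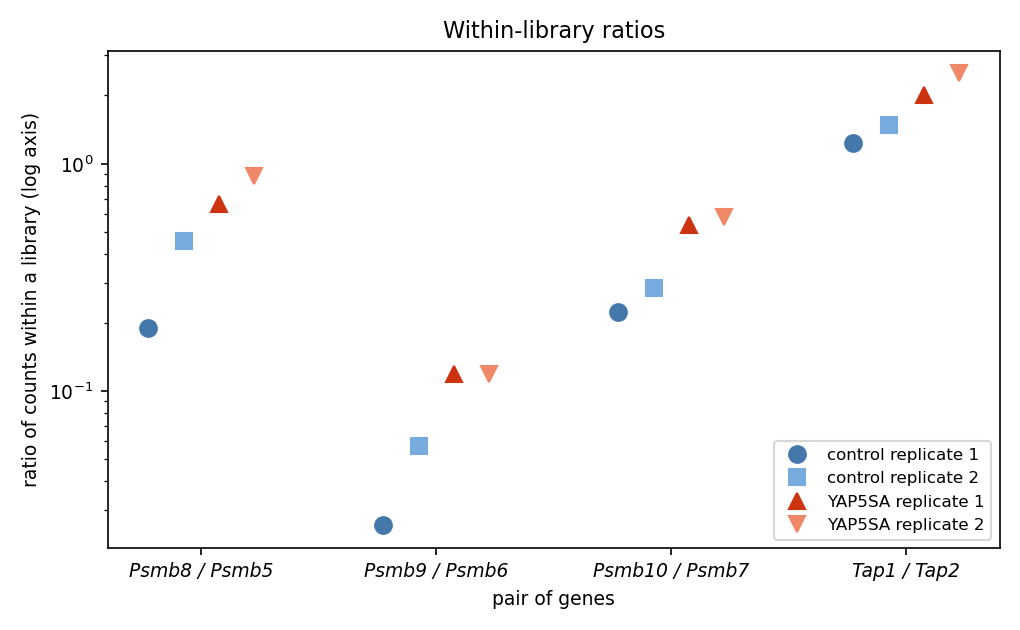
Ratio of counts within each library for 3 immunoproteasome subunits over the constitutive subunits they replace, and for Tap1 over Tap2, on a log axis. The ratio of Psmb8 to Psmb5 goes from 0.189 and 0.458 in the controls to 0.667 and 0.882 in the YAP5SA libraries, and in each of the 4 pairs both YAP5SA points lie above both control points.

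Nlrc5, the class I transactivator, lies at chromosome 8, 94434356 to 94527272. It was counted at 3.53 and 5.42 CPM in the controls and 13.3 and 12.5 CPM with YAP5SA. Both YAP5SA libraries exceeded 2 times the higher control, and the log2 fold change of 1.54 ± 0.301 (SE) was the largest of the 29. Its adjusted p of 0.0562 missed the threshold by edgeR, as did 0.0507 by limma-voom, while DESeq2 gave 0.00545; over all alternatives run it lay between 8.65e-10 and 0.508. Against control replicate 2 alone the log2 fold change was 1.25, and against control replicate 1 alone it was 1.88.

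Ciita, the class II transactivator, was counted at 3.71 and 21.0 CPM in the controls and at 9.50 and 9.49 CPM with YAP5SA. The controls differed by 5.66 times and both YAP5SA libraries lay between them. The log2 fold change was -0.36 ± 0.736 (SE), with an adjusted p of 0.809. It was 1.36 against control replicate 1 alone and -1.15 against control replicate 2 alone. The count ratio of Nlrc5 to Ciita was 0.951 and 0.258 in the controls and 1.40 and 1.32 in the YAP5SA libraries.

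The class II chains and Cd74, the invariant chain that escorts them to the endosome, had the same spread between the controls. Cd74 was counted at 14.2 and 57.5 CPM in the controls and 45.3 and 63.6 CPM with YAP5SA (log2 fold change 0.61, adjusted p = 0.591). H2-Aa, the alpha chain of the I-A molecule, was counted at 8.97 and 27.5 CPM against 15.2 and 22.9 CPM (0.07, adjusted p = 0.949). H2-Ab1, its beta chain, was counted at 6.16 and 27.0 CPM against 13.1 and 19.4 CPM (-0.01, adjusted p = 0.997). For both chains of I-A the YAP5SA libraries lay between the controls.

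H2-Eb1, the beta chain of I-E, was counted at 4.17 and 11.5 CPM in the controls and 7.08 and 8.51 CPM with YAP5SA (log2 fold change 0.01, adjusted p = 0.993). Control replicate 2 exceeded control replicate 1 at least 2 times in 7 of the 29 genes, all of the class II pathway (Cd74, Ciita, H2-Aa, H2-Ab1, H2-DMb1, H2-DMb2 and H2-Eb1), where 10.2% of all tested genes did. The reverse held for 0 of the 29, where 8.19% of all tested genes did. For the 4 class II and invariant chain genes tested, of 6 in the table, the median log2 fold change was 0.04. It was -0.55 without control replicate 1 and 1.25 without control replicate 2.

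**Figure D4:**
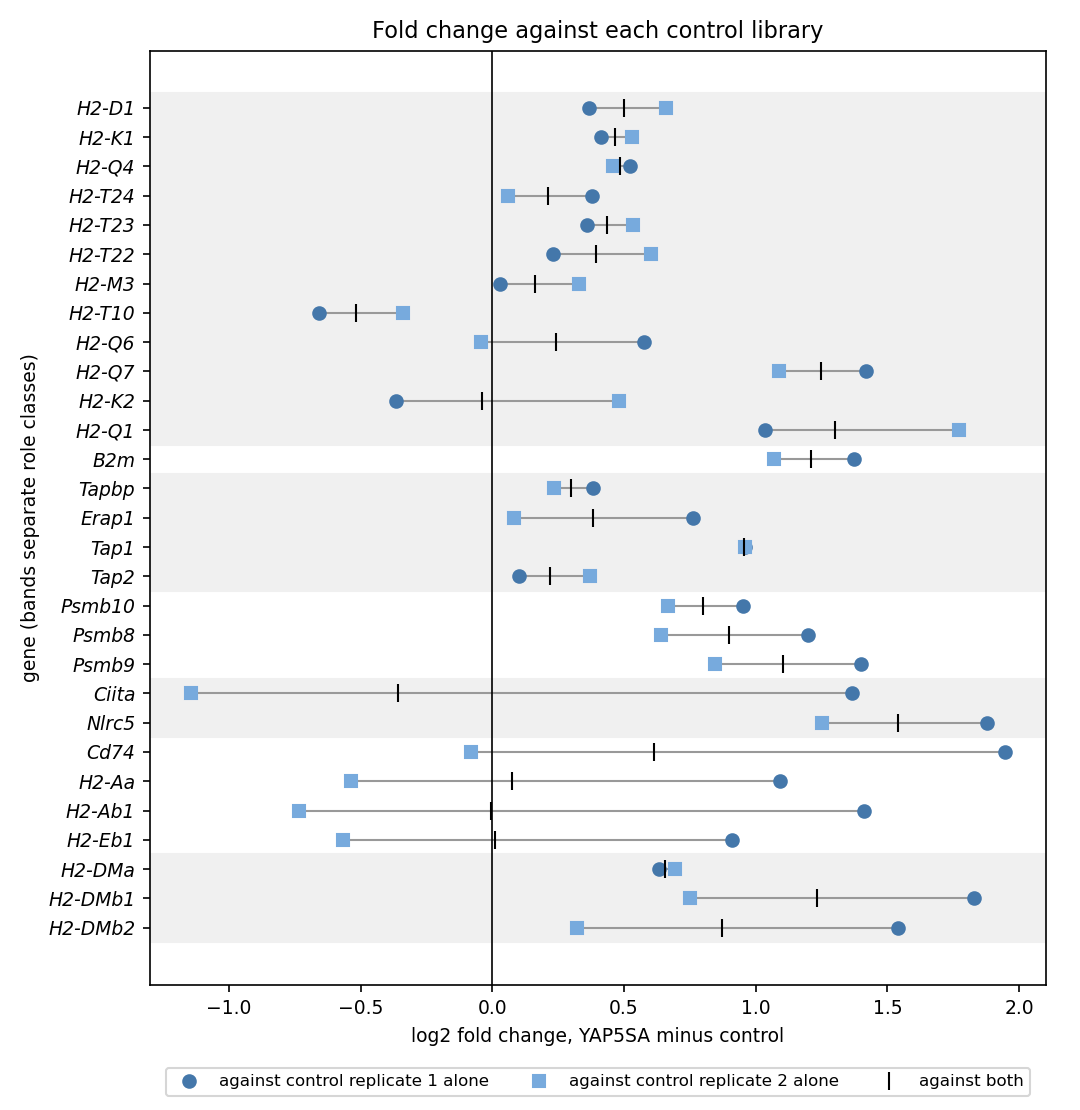
Log2 fold change, YAP5SA minus control, of the 29 tested genes when control replicate 1 or control replicate 2 is the only control, with a tick for the fit to both. For Ciita the 2 values are 1.36 and -1.15, while for B2m they are 1.37 and 1.07 and for Tap1 both are 0.96.

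H2-DM, encoded by H2-DMa and the beta chain genes H2-DMb1 and H2-DMb2, exchanges the invariant chain fragment for antigenic peptide. H2-DMa was counted at 5.98 and 5.68 CPM in the controls and 8.69 and 9.72 CPM with YAP5SA (log2 fold change 0.66, adjusted p = 0.200). H2-DMb1 was counted at 0.815 and 1.72 CPM against 2.70 and 3.11 CPM (1.23, adjusted p = 0.202), and H2-DMb2 at 0.453 and 1.06 CPM against 1.15 and 1.52 CPM (0.87, adjusted p = 0.397). The YAP5SA pair lay above the control pair in all 3 (28.1% of all tested genes), and 0 passed by edgeR, DESeq2 or limma-voom. H2-DMa and H2-DMb1 were higher at an unadjusted p under 0.05 by edgeR, where 12.7% of all tested genes were. H2-Oa and H2-Ob, which encode the inhibitor of H2-DM, had 10 and 11 counts in the 4 libraries together and were not tested.

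Markers of cells other than cardiomyocytes were present in all libraries. The summed level of the macrophage markers was higher in both YAP5SA libraries than in either control. Among the 12 macrophage or monocyte genes examined, 6 rose and none fell (3.12% and 0.999% of all tested genes), with a median log2 fold change of 1.49. At an unadjusted p under 0.05 by edgeR, 11 were higher (12.7% of all tested genes). DESeq2 called 11 higher (5.72% of all genes to which it gave an adjusted p). Both YAP5SA libraries lay above both controls in all 12, where 28.1% of all tested genes did. The 12 genes summed to 850 and 633 CPM in the controls and 1565 and 1871 CPM with YAP5SA, and none was at 0. The 4 with the smallest adjusted p were Fcgr1, an Fc receptor (log2 fold change 1.89, adjusted p = 0.0266), Cd14, a co-receptor for lipopolysaccharide (1.69, 0.0284), Adgre1, which encodes the macrophage antigen F4/80 (1.62, 0.0301), and C1qb, a complement subunit (1.59, 0.0359). Without control replicate 1, 12 rose (18.8% of all tested genes), without control replicate 2, 11 rose (20.1%), and without either YAP5SA library 0 did. The part of these markers in the levels of B2m, Tap1 and Nlrc5 was not tested.

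Markers of dendritic cells and of lymphocytes were scarce. The 7 dendritic cell markers summed to 56.2 and 56.8 CPM in the controls and 59.8 and 60.0 CPM with YAP5SA. Most of each sum was Zbtb46, at 35.5 and 42.4 CPM in the controls and 44.9 and 41.5 CPM with YAP5SA. Of the 7, 5 were tested and 0 passed the threshold in either direction, with 3 log2 fold changes positive. At an unadjusted p under 0.05, 1 was lower: Clec9a, at 7.34 and 3.97 CPM against 2.43 and 2.13 CPM (log2 fold change -1.32, adjusted p = 0.139). The 5 B lymphocyte markers summed to 10.7 and 1.85 CPM against 0.943 and 1.06 CPM, so control replicate 1 stood apart. The 1 tested among them, Cd79a, had a log2 fold change of -2.94 (adjusted p = 0.148). It was lower at an unadjusted p under 0.05 by edgeR, and DESeq2 and the fit without the filter on low counts called it lower. Its log2 fold change was -0.96 without control replicate 1 and -3.70 without control replicate 2. The 6 T lymphocyte markers summed to 3.17 and 3.97 CPM against 2.76 and 3.34 CPM, with 1 tested and 0 past the threshold. Beside the class II spread between the controls, the macrophage sum was lower in control replicate 2 (633 CPM) than in control replicate 1 (850 CPM), and 8 of its 12 genes were lower there. The other 4 were higher in control replicate 2: Adgre1, Fcgr1, the leukocyte marker Ptprc (37.9 against 17.2 CPM) and Cx3cr1, a chemokine receptor of monocytes and macrophages (21.7 against 8.42 CPM). The part of these cells in the class II values was not tested.

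Endothelial markers, from cells that also carry class I, summed to 1453 and 1043 CPM in the controls and 767 and 733 CPM with YAP5SA. Both YAP5SA libraries lay below both controls in all 8, where 28.3% of all tested genes did. Of the 8, 1 fell (Vwf, log2 fold change -1.30, adjusted p = 0.0428), where 0.999% of all tested genes fell. At an unadjusted p under 0.05, 7 were lower, where 10.9% of all tested genes were. The count that fell was 7 without control replicate 1 (17.9% of all tested genes) and 8 without control replicate 2 (18.8%). Of 7 fibroblast markers 1 rose (Lum, 1.16, adjusted p = 0.0394) and 0 fell, where 3.12% and 0.999% of all tested genes did. Their median log2 fold change was -0.38, with 2 higher and 0 lower at an unadjusted p under 0.05 (12.7% and 10.9%). Of 7 pericyte and smooth muscle markers 1 rose (Acta2, 2.67, adjusted p = 0.0284) and 0 fell, with the same shares of all tested genes. Their median was -0.22, with 1 higher and 3 lower at an unadjusted p under 0.05 (12.7% and 10.9%). DESeq2 called 1 of the 7 higher and 2 lower (5.72% and 2.82% of all genes to which it gave an adjusted p). Vwf, Lum and Acta2 each lost the call without YAP5SA replicate 1 and without YAP5SA replicate 2, with adjusted p between 0.180 (Acta2) and 0.484 (Vwf). Of the 8 cardiomyocyte markers 0 passed by edgeR, with 4 lower at an unadjusted p under 0.05 (10.9%) and 4 lower by DESeq2 (2.82%). In 6 of the 8 both YAP5SA libraries lay below both controls, where 28.3% of all tested genes did.

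Other genes of the pathway were read from lists. Of 12 genes listed for interferon signalling to the MHC genes, 2 rose and 0 fell (3.12% and 0.999% of all tested genes). Their median log2 fold change was 0.35. Ifngr2, a subunit of the interferon gamma receptor, was counted at 64.8 and 71.6 CPM in the controls and 137 and 165 CPM with YAP5SA (log2 fold change 1.15 ± 0.179 SE, adjusted p = 0.0394). Irf8, a transcription factor of macrophages and dendritic cells, was counted at 13.8 and 15.2 CPM against 28.7 and 28.7 CPM (0.99 ± 0.179, adjusted p = 0.0493). Irf8 lay just past the threshold and missed it with the stricter filter (adjusted p = 0.0501) and by limma-voom (adjusted p = 0.0508), which left 1 of the 12 called in each. Irf1, a transcription factor induced by interferon, had a log2 fold change of 0.27 (adjusted p = 0.555). Without control replicate 1, 6 of the 12 rose (18.8% of all tested genes), without control replicate 2, 7 rose and 1 fell (20.1% and 18.8%), and without either YAP5SA library 0 did.

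Among 8 genes of the complex on which NLRC5 and CIITA assemble, 0 rose and 1 fell (3.12% and 0.999% of all tested genes). Their median log2 fold change was -0.08. The gene that fell was Rfxank, a subunit of the RFX complex that is needed for class II expression. It was counted at 46.3 and 41.8 CPM in the controls and 13.5 and 12.1 CPM with YAP5SA, and the groups did not overlap. The log2 fold change was -1.78 ± 0.180 (SE), with an adjusted p of 0.0234. The call was lost without YAP5SA replicate 1 (adjusted p = 0.407) and without YAP5SA replicate 2 (adjusted p = 0.255), within a range of 2.88e-26 to 0.407 over all alternatives run. Exons of Rfxank overlap those of Nr2c2ap on the other strand.

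Of 12 further genes of class I assembly and the proteasome, 0 passed in either direction by edgeR, DESeq2 or limma-voom, with 0 at an unadjusted p under 0.05 and a median log2 fold change of 0.31. Of these, 4 rose without control replicate 1 (18.8% of all tested genes), and without control replicate 2, 4 rose (20.1%) and 3 fell, a share near the 18.8% of all tested genes. Of 9 genes of class II processing and costimulation, 1 rose and 0 fell (3.12% and 0.999% of all tested genes), with a median log2 fold change of 1.01. DESeq2 called 5 of the 9 higher (5.72% of all genes to which it gave an adjusted p). The gene that rose was Lgmn, an endosomal protease that cuts antigens and the invariant chain, counted at 235 and 190 CPM in the controls and 489 and 571 CPM with YAP5SA (log2 fold change 1.32 ± 0.218 SE, adjusted p = 0.0429). Without control replicate 1, 6 of the 9 rose (18.8% of all tested genes), without control replicate 2, 5 rose and 1 fell (20.1% and 18.8%), and without either YAP5SA library 0 did.

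Of 8 MHC-like molecules encoded outside the H2 complex, 6 were tested and 0 passed by edgeR. At an unadjusted p under 0.05, 1 was higher and 2 were lower (12.7% and 10.9% of all tested genes). DESeq2 called 1 higher and 1 lower (5.72% and 2.82% of all genes to which it gave an adjusted p). Ulbp1, a ligand of the activating receptor NKG2D, was counted at 5.25 and 4.63 CPM in the controls and 10.8 and 13.9 CPM with YAP5SA (log2 fold change 1.31, adjusted p = 0.0626). Procr, the endothelial protein C receptor, was counted at 35.0 and 10.05 CPM in the controls and 3.03 and 2.43 CPM with YAP5SA (-3.05, adjusted p = 0.0628). Both were named after their values were seen. Of the 6, 2 rose and 3 fell without control replicate 1 (18.8% and 17.9% of all tested genes), and without control replicate 2, 1 rose and 2 fell (20.1% and 18.8%).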

How the data were processed

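Whole-number read counts per gene symbol were deposited by the authors in 1 table for the 4 nuclear RNA libraries. Per the labels' protocols, bead-bound PCM1+ nuclei were lysed, rRNA was removed, libraries were made with a stranded kit and sequenced as paired 75-base reads; reads were aligned to mm10 with STAR and compared with DESeq2. The counting tool, its strand setting and its annotation were not given in the sources used here.

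Genes were kept by filterByExpr with a minimum count of 10, scaled by TMM and tested with edgeR's quasi-likelihood test (edgeR 4.0.16, limma 3.58.1, R 4.3.3; no block), with Benjamini-Hochberg adjustment over 17715 genes and a threshold of 0.05. The test was checked on simulated counts. CPM are counts scaled to the TMM-adjusted library total. The alternatives were DESeq2 1.42.0, limma-voom, other scalings and filters, a replicate block and leaving out each library. The genes and lists were chosen with earlier results of these data known. Every tested gene of the pathway is named with its fold change and adjusted p; library values are given for those past the threshold, the 2 most abundant in each role and others described. Of each list the genes past the threshold are named, up to 4. Gene models came from GENCODE M21 and promoters from RefSeq (GRCm38.p6). Counting floors cover counting error only. The ATAC-seq and 4C libraries are not analysed here. A result on 1 further gene is not reported here.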

Additional observations from a re-analysis of the deposited data

How the results depend on the processing

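Of 316 alternative values of the 29 tested genes, 258 kept their direction and their side of the threshold, 7 lost and 29 gained a call, and 22 turned their sign; 21 genes kept their sign in every alternative run. The stricter filter called 2 of the 26 genes it kept higher (3.67% of all genes it tested). Scaling by RLE size factors called 2 of the 29 higher and library totals 3 (3.25% and 3.71% of all tested genes). Without the filter 6 were higher, by limma-voom 1, and when each library was left out between 0 and 18 were higher and between 0 and 3 lower. Over all genes, 1727 (5.65%) were higher and 1689 (5.53%) lower without the filter, 1069 and 527 by DESeq2, and between 0 and 3558 higher and between 0 and 3332 lower when each library was left out. The median over the tested genes ranged from 0.44 to 0.91 when each library was left out.

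Same-numbered libraries did not deviate together (correlation of deviations -0.09 over 17715 genes). This correlation cannot show whether the replicate numbers pair the samples, because it compares expression and not how the samples were prepared. With the replicate block 0 of the 29 passed, with an adjusted p of 0.0553 for B2m and 0.100 for Tap1. At an unadjusted p under 0.05, 7 of the 29 were higher with the block, where 10.5% of all tested genes were. Over all genes, the block left 321 (1.81%) higher and 112 (0.632%) lower past the threshold. The block also ended the calls of Ifngr2 (adjusted p = 0.0590), Irf8 (0.0980), Lgmn (0.0798), Vwf (0.0616) and Lum (0.0573).

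The log2 fold change turned its sign with the replicate block for Ciita (0.045) and H2-Ab1 (0.28), by limma-voom for Ciita (0.26) and H2-Ab1 (0.44), by DESeq2 for H2-K2 (0.042) and H2-Ab1 (0.029), without the filter for H2-K2 (0.017) and H2-Ab1 (0.031), with library totals for H2-Ab1 (0.048) and with the stricter filter for H2-Eb1 (-0.022). When each library was left out, it ranged from -1.15 to 1.36 for Ciita, -0.49 to 0.48 for H2-K2, -0.73 to 1.41 for H2-Ab1, -0.54 to 1.09 for H2-Aa, -0.56 to 0.91 for H2-Eb1, -0.042 to 0.58 for H2-Q6, -0.089 to 0.39 for H2-M3 and -0.081 to 1.95 for Cd74. The cause was not tested. At 2 libraries a group, and with the shallowest library at 7850661 counts, differences in genes near 1 CPM, such as H2-K2, H2-DMb2 and H2-Q1, were not detectable unless large.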
